A study of Caenorhabditis elegans with 2 samples.

Results

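Nuclear hormone receptor genes were examined as binding targets of K11D2.4, a C2H2 zinc finger protein of Caenorhabditis elegans. The receptor genes were chosen by name: protein-coding genes called nhr- with a number (269 genes) together with daf-12, unc-55, odr-7, fax-1 and sex-1. This gave 274 of the 19973 protein-coding genes on the nuclear chromosomes in the Ensembl annotation of WBcel235, the assembly also known as ce11. Every one of the 274 had a RefSeq gene with the same WormBase identifier and the same symbol. The RefSeq product name mentioned a receptor or a receptor ligand-binding domain for 273 of them, the exception being nhr-246, which RefSeq describes as a kinase-like domain protein. A gene counted as having a promoter summit when the highest point of a peak fell in a window around one of its transcript starts, reaching 1000 bp upstream and 200 bp downstream.

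The data were chromatin immunoprecipitation sequencing (ChIP-seq) peak lists from 1 group with 2 biological replicates. Both replicates were whole young adult worms of strain RW12320, in which allele st12320 places TY1, EGFP and 3xFLAG tags on K11D2.4 at its own locus on chromosome I. The animals were synchronised as starved first-stage larvae and collected at 62 hours, and the precipitation used an antibody against GFP. All results come from this 1 insertion strain, and a whole animal mixes all tissues, so binding in few cells and weak binding in many cells cannot be told apart. An untagged or input library was not analysed here.

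Nuclear hormone receptors are transcription factors that bind DNA through a zinc finger domain and, in many cases, a small lipid-like ligand through a second domain. Most animals have a modest set of them, and nematodes carry a greatly enlarged one. A small conserved class has counterparts in insects and vertebrates and includes regulators of moulting, dauer arrest, sex determination and neuron identity. The expanded class arose within nematodes from an ancestor related to vertebrate HNF4, and its best-known members control fat, propionate, methionine and stress metabolism. RefSeq describes the tagged protein as having a C2H2-type domain, another kind of zinc finger.

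Of the 274 receptor genes, 13 had a promoter summit in the pooled conservative list, the more stringent of the 2 pooled thresholded lists. They were nhr-255, nhr-47, nhr-48, nhr-68, nhr-1, nhr-142, nhr-35, nhr-49, nhr-41, nhr-34, nhr-256, nhr-19 and nhr-114, in order of signal. This is a share of 4.74% (exact 95% interval 2.55 to 7.98), beside 5.77% of all protein-coding genes. The receptor genes as a group therefore carried promoter summits at about the background rate, and the interval includes the background. Intervals here treat genes as independent and cover counting error only, and no test between groups was possible with 1 group.

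The 13 peaks were of ordinary height for this factor. Their signals, on the authors' own scale, ran from 82.1 at nhr-114 to 214 at nhr-255, with a median of 118. The 1152 protein-coding genes with a promoter summit had a median highest signal of 116 (quartiles 88.1 and 172). The best-ranked receptor peak was number 212 of 1927 in the list and the lowest number 1377. The median receptor summit lay at -428 bp from the start, beside -270 bp over all genes with a summit. Only the nhr-41 summit lay downstream of the nearest start of its receptor gene.

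**Figure D1:**
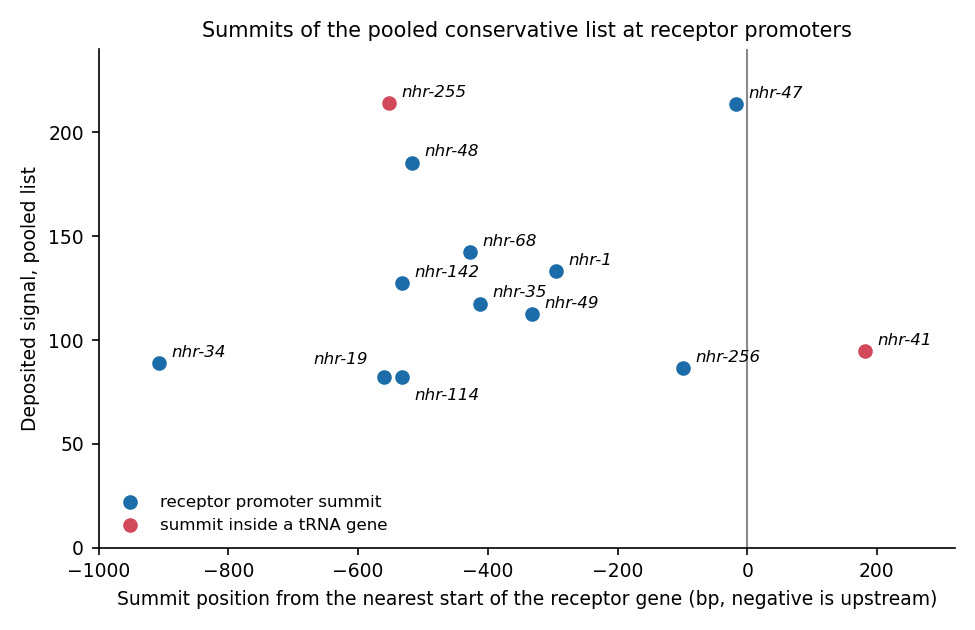
The plot of summit position shows the 13 receptor promoter summits of the pooled conservative list, with distance from the nearest start of the receptor gene in bp on the x axis (negative is upstream) and the deposited signal on the y axis. The 2 red points, nhr-255 and nhr-41, are summits inside tRNA genes; nhr-47 at -17 bp lies closest to a start and nhr-34 at -907 bp farthest.

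Each of the 13 pooled peaks overlapped a peak in both replicates' ranked lists, which hold 41734 and 42705 peaks before any threshold. After thresholding, 5 receptor genes remained in replicate 1's own list (1.82%, beside 3.39% of all genes) and 11 in that of replicate 2 (4.01%, beside 4.07% of all genes). The genes in both were nhr-47, nhr-48, nhr-68, nhr-142 and nhr-255. Of the 11 in replicate 2, 9 were among the 13 and the others were nhr-17 and nhr-85. The log2 ratio of replicate 1 to replicate 2 signal at the 13 peaks ran from -0.57 at nhr-35 to 0.49 at nhr-142. Its median was 0.06 and its SD 0.33, beside a median of 0.01 and an SD of 0.41 over the 1904 pooled peaks present in both ranked lists.

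**Figure D2:**
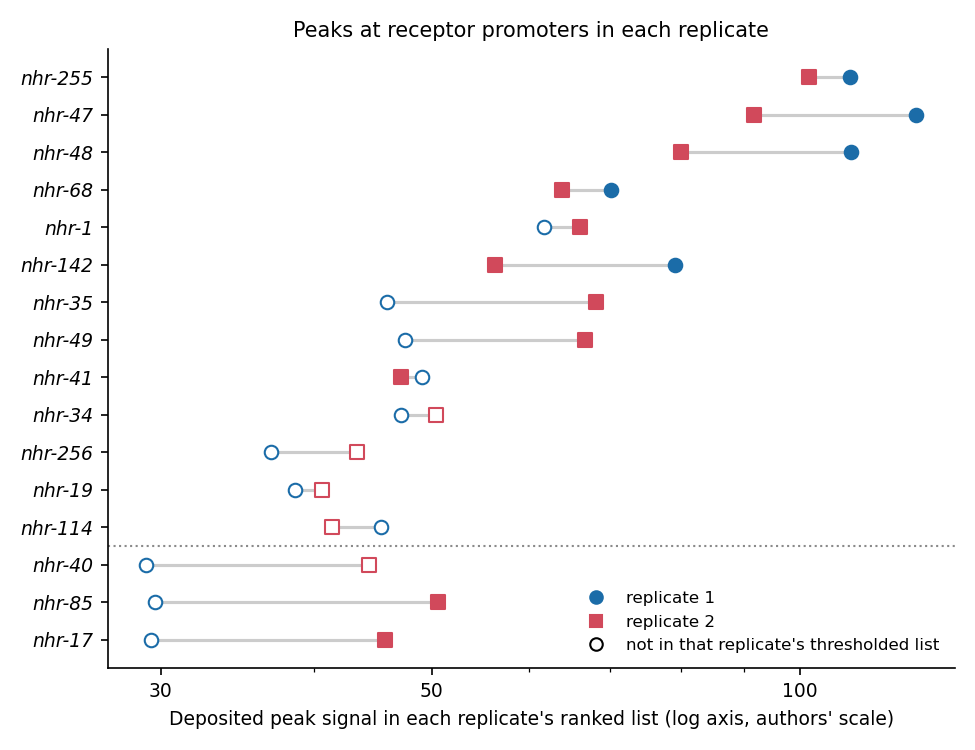
The plot of replicate signals gives the deposited signal of each receptor peak in the ranked list of replicate 1 (circles) and replicate 2 (squares) on a log axis, with filled symbols where the peak is also in that replicate's thresholded list. The 5 genes filled in both replicates are nhr-255, nhr-47, nhr-48, nhr-68 and nhr-142; below the dotted line are 3 receptors that are in the second pooled list and not in the conservative one, all lower in replicate 1 than in replicate 2.

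Among the conserved receptors, nhr-48 and nhr-41 had a promoter summit. The gene nhr-48 belongs with daf-12, nhr-8 and the vertebrate vitamin D and pregnane X receptors. Its peak lay at chrX:15707534-15707857 (build ce11), outside any protein-coding gene, with its summit at -517 bp from the nhr-48 start (WBGene00003638, plus strand). The pooled signal was 185 at rank 288. Replicate 1 had a signal of 110.2 at rank 219 and replicate 2 a signal of 79.9 at rank 445. Both values passed that replicate's own threshold, and no other protein-coding promoter contained the summit.

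The other conserved receptor, nhr-41 (WBGene00022423), is grouped with the testicular receptors of mammals. Its peak at chrIV:1388116-1388439 had a pooled signal of 94.7 at rank 1074, in an intron of nhr-41 and 181 bp past a start. The signal was 49.1 in replicate 1 and 47.2 in replicate 2, and it passed the threshold in replicate 2 alone. The pooled summit also lay inside an annotated tRNA gene, WBGene00023202, at chrIV:1388216-1388287. Replicate 1's summit, shifted by -40 bp, lay inside it as well, while that of replicate 2, shifted by 36 bp, lay just outside. Which of the 2 genes the binding belongs to cannot be told apart from position.

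A second receptor peak, the highest of all, also sat on a tRNA gene. It lay at chrX:15742011-15742131, with the summit at -552 bp from the start of nhr-255 (WBGene00014068), an expanded receptor. The tRNA gene WBGene00014626 spans chrX:15742050-15742133. The pooled signal was 214, and the replicates gave 110.1 and 102, both above their thresholds. The replicate summits were shifted by 5 and -15 bp, the second of which is just outside the tRNA gene. Of all 1927 pooled peaks, 85 (4.41%) had a summit inside a tRNA gene, and of the 996 in any promoter, 18 did (1.81%). With 2 of 13 receptor peaks, the exact 95% interval runs from 1.92% to 45.4%, a range that includes the share of all pooled peaks and begins just above that of promoter peaks.

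The sequences of these 2 windows are shown because they hold the internal promoter element of tRNA genes within a receptor's promoter window. Each is 201 bp of the plus strand centred on the summit, from chrX:15741958-15742158 and chrIV:1388178-1388378, read from the RefSeq copy of WBcel235. Capitals mark the B box, searched as GGTTCGANNCC on both strands; the nhr-41 match is on the minus strand.
nhr-255: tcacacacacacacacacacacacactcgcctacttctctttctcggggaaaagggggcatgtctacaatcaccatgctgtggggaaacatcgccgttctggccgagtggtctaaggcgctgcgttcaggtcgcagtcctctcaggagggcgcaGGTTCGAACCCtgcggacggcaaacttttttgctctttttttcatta
nhr-41: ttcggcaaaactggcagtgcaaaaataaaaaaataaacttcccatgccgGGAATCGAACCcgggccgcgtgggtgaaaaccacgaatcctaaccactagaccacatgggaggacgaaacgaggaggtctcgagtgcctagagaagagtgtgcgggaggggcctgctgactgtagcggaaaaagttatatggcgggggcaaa
The element was present within 100 bp of the summit at these 2 of 13 receptor peaks. It was present at 4.72% of all pooled peaks, at 1.91% of those in promoters, and in 0.210% of 201-bp windows lying 100 to 300 bp upstream of each gene's outermost start. Because the element is part of tRNA genes, these shares restate the overlap with tRNA genes given above and are not a separate result.

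A set of 3 well-studied metabolic receptors of the expanded class had promoter summits. The gene nhr-49 (WBGene00003639) encodes an activator of fatty acid oxidation and desaturation genes. Its peak at chrI:9869157-9869480 had a pooled signal of 113 at rank 774, with the summit at -332 bp. The signal was 47.6 at rank 1284 in replicate 1 and 66.7 at rank 642 in replicate 2, where alone it passed the threshold.

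The gene nhr-68 (WBGene00003658) acts in the propionate shunt, a pathway that degrades propionate when vitamin B12 is scarce. The peak at chrV:11572850-11573173 had a pooled signal of 142 at rank 490. Replicate 1 gave 70.1 and replicate 2 gave 63.9, both above threshold. The summit was at -428 bp from nhr-68 but at -22 bp from H12C20.7, an uncharacterized gene on the opposite strand, and so lies much nearer to the second gene.

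The gene nhr-114 (WBGene00003704) protects the germline under diets poor in vitamin B12 or tryptophan. Its peak at chrV:4186508-4186831 had the lowest signal of the 13, 82.1 at rank 1377, with 45.4 in replicate 1 and 41.4 in replicate 2. Neither replicate's own list kept it. The summit lay at -533 bp, in an intron of the gene Y45G5AM.9.

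Among the other expanded receptors, nhr-47 (WBGene00003637) had the strongest peak outside a tRNA gene, at chrV:5505074-5505397. Its summit was at -17 bp from the start, inside the annotated noncoding RNA gene C24G6.10, and at -379 bp from dnj-19, a J-domain chaperone gene on the opposite strand. The pooled signal was 213, with 125 in replicate 1 and 91.8 in replicate 2. The nhr-142 peak (WBGene00018430, chrV:5790924-5791247) had a pooled signal of 127, with 79.1 and 56.3 in the replicates. Its summit lay at -533 bp from nhr-142 but at -144 bp from F44E7.9, which RefSeq calls a Rab5-interacting protein. So 3 of the 13 summits lay between divergent starts, and at 2 of them the other gene was nearer. The share of all promoter peaks between divergent starts was not counted. With the nearest start alone, 4.01% of receptor genes kept a summit, beside 4.36% of all genes. These shares were 4.74% and 5.77% under the main rule, so such losses were not particular to receptors.

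On X, nhr-1 (WBGene00003600), a receptor of the hydrogen sulfide response, had a peak at chrX:17513606-17513929 with a pooled signal of 133 and its summit at -295 bp. Replicate 1 gave 61.8 and replicate 2 gave 66.1. The values were close, yet the peak failed replicate 1's threshold, with a score of 41 there against 1000 in replicate 2. The nhr-35 peak (WBGene00003628, chrX:4532117-4532440) had a pooled signal of 118, with 45.9 in replicate 1 and 68.1 in replicate 2, and passed in replicate 2 alone.

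The remaining 3 peaks passed in neither replicate's own list. They were nhr-34 (WBGene00003627, chrIV:9669940-9670263, pooled signal 88.9, within an nhr-34 intron), nhr-256 (WBGene00022805, chrV:1743510-1743833, 86.4) and nhr-19 (WBGene00003618, chrII:9605924-9606247, 82.4). Their signals were 37.0 to 47.1 in replicate 1 and 40.6 to 50.4 in replicate 2. Together with nhr-114 they were the 4 lowest of the 13 in the pooled list.

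Sequences of 4 peak centres are shown for comparison of the sites themselves, namely the 3 highest on V and X whose window held no tRNA gene and no base of an annotated exon, and nhr-114 as the lowest of the 13. Each is 101 bp of the plus strand, and capitals mark the 5 bases centred on the summit. The windows are chrX:15707646-15707746 (nhr-48), chrX:17513718-17513818 (nhr-1), chrV:5791036-5791136 (nhr-142) and chrV:4186620-4186720 (nhr-114).
nhr-48: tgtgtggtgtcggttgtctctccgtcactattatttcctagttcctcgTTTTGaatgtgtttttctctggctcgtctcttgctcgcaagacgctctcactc
nhr-1: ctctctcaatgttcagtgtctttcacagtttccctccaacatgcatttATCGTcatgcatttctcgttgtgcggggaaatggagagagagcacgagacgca
nhr-142: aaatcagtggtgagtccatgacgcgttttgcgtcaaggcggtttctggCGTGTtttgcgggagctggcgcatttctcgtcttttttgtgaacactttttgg
nhr-114: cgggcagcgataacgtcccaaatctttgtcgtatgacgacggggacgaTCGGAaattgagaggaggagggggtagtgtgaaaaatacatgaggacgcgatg
Across the 100 bp around the summit, GC content had a median of 48% at the 13 receptor peaks and 48% at all 1927 pooled peaks, with a range from 37% at nhr-19 to 59% at nhr-255. The word CGCAGA, searched on both strands, was within 50 bp of the summit at 1 of the 13, that of nhr-49. It was present at 13.2% of all pooled peaks, at 14.1% of those in promoters and in 2.89% of 101-bp windows lying 200 to 300 bp upstream of each gene's outermost start. Where this word came from is not recorded, and it may have been read from these same peaks. These shares are therefore a description only.

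The remaining 13 conserved receptors had no promoter summit in the pooled conservative list. In the ranked lists their highest promoter signals reached 31.4 in replicate 1 and 50.6 in replicate 2. The median over all ranked peaks was 19.4 in replicate 1 and 18.1 in replicate 2. The Rev-erb relative nhr-85 came closest. Its peak at chrI:13060337-13060660 was in the second pooled list and in replicate 2's own list, with a signal of 50.6 at rank 1107 in replicate 2 and 29.7 at rank 5918 in replicate 1. For daf-12, the steroid receptor of the dauer decision, the highest promoter signal was 31.4 at rank 4835 in replicate 1 and 24.7 at rank 9617 in replicate 2. For nhr-25, a moulting and epidermal regulator related to SF-1, it was 29.6 in replicate 1 and 19.7 in replicate 2, at different summits.

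The moulting regulator nhr-23 had a summit in replicate 1 alone (25.02), as did the uterine and neuronal factor nhr-67 (20.2), nhr-111 (19.9), the germ cell nuclear factor relative nhr-91 (18.5) and the motor neuron identity gene unc-55 (10.2). The X-chromosome counting gene sex-1 had one in replicate 2 alone (22.9). For nhr-239 the replicates gave 11.4 and 29.9 at different summits. The sterol and xenobiotic receptor nhr-8, the spermatheca gene nhr-6 and the neuron identity gene fax-1 had no promoter summit in either ranked list. A ranked peak is a call before the threshold, and 45% of all genes in replicate 1 and 46.2% in replicate 2 had one in the promoter.

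**Figure D3:**
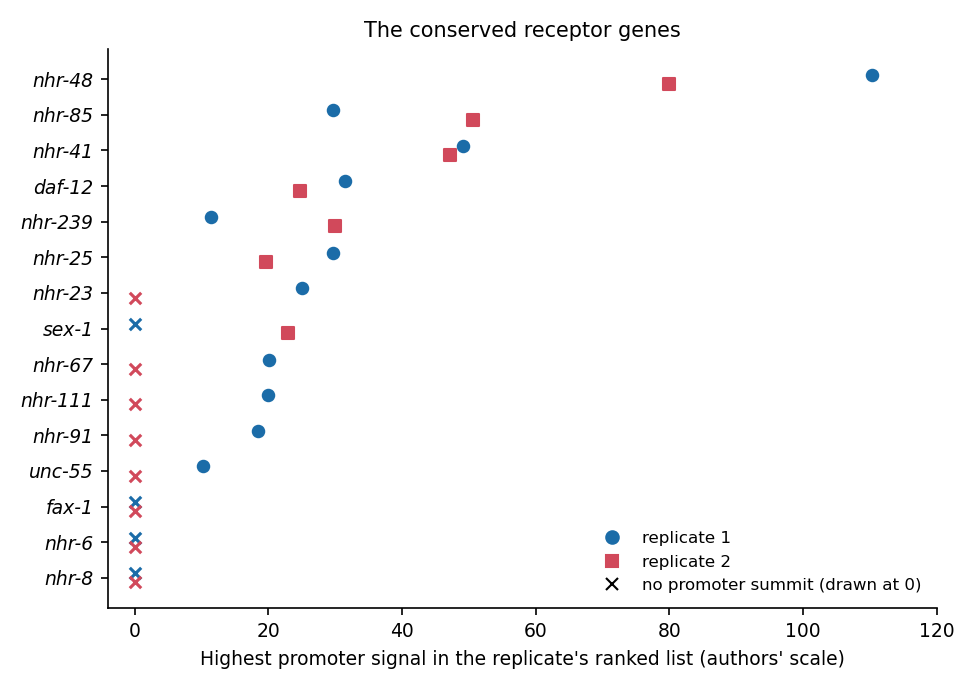
The plot of the conserved receptors gives, for each of the 15 genes, the highest promoter signal in the ranked list of replicate 1 (circles) and replicate 2 (squares) on a linear axis, with crosses at 0 where no promoter summit was listed. Only nhr-48 stands above 100 in a replicate; nhr-85 and nhr-41 follow near 50, and nhr-8, nhr-6 and fax-1 have no summit in either.

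Conserved and expanded receptors were compared by their counts. In the pooled conservative list, 2 of 15 conserved genes had a promoter summit (13.3%, exact 95% interval 1.66 to 40.5), as did 11 of 259 expanded genes (4.25%, 2.14 to 7.47). The expanded interval lies wholly within the conserved one, and both include the 5.77% of all genes. In the second pooled list, where 5.96% of all genes had a summit, the counts were 3 and 13. Among the 5000 highest peaks of replicate 1, summits fell in 3 conserved promoters (20.0%) and 19 expanded ones (7.34%), beside 10.4% of all genes. In replicate 2 the counts were 4 (26.7%) and 29 (11.2%), beside 11.2% of all genes. Over the full ranked lists the order of the classes differed between replicates. Replicate 1 had 11 of 15 conserved and 120 of 259 expanded genes (73.3% and 46.3%), and replicate 2 had 7 and 135 (46.7% and 52.1%).

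The number of annotated transcript starts moved with these counts. Conserved genes had a median of 2 starts and a window of 1334 bp, while expanded genes had 1 start and 1201 bp. Of receptor genes with 2 or more starts, 11 of 97 had a summit (11.3%, exact 95% interval 5.80 to 19.4), beside 9.54% of all such genes. Of those with 1 start, 2 of 177 did (1.13%, 0.137 to 4.02), an interval below the 4.42% of all such genes. These 2 were nhr-47 and nhr-255. In the second pooled list 3 of 177 had a summit (1.69%, 0.351 to 4.87), where the share of all such genes was not counted. Within the genes of 2 or more starts, 2 of 10 conserved and 9 of 87 expanded genes had one (20.0% and 10.3%). The part of window width in the difference between the classes was not tested.

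**Figure D4:**
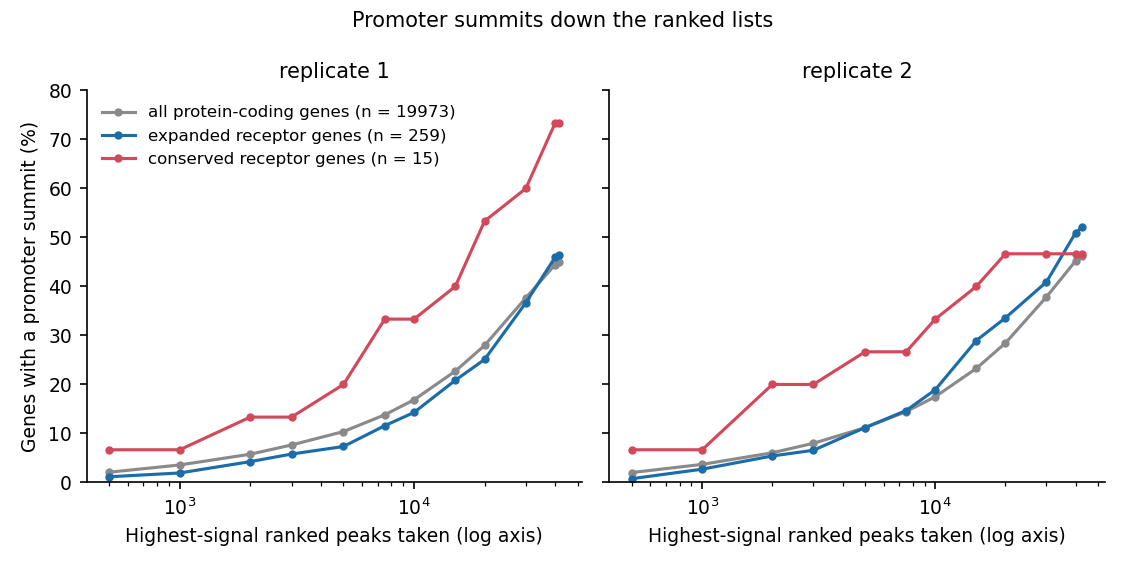
The plot of promoter summits down the ranked lists gives the share of genes (y axis, percent) with a promoter summit among the highest-signal peaks taken (x axis, log scale), for conserved receptors, expanded receptors and all protein-coding genes in each replicate. The expanded receptors start below all genes, at 1.16% against 2.09% for the 500 highest peaks of replicate 1 and 0.772% against 2.02% in replicate 2, and end at 46.3% and 52.1%, above all genes. The conserved line, which rests on 15 genes, lies above both except at the end of replicate 2's list, where it is at 46.7% and below the expanded line.

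Expanded receptors with described roles, a list of 25 that includes nhr-49, nhr-80, nhr-66 and nhr-10, had a summit in 4 cases (16%, exact 95% interval 4.54 to 36.1), beside 5.77% of all genes. These were nhr-49, nhr-68, nhr-114 and nhr-35. The other 234 expanded genes, among which nhr-1 is counted because it was not on that list, had one in 7 cases (2.99%, 1.21 to 6.07). Both intervals include the share of all genes in the conservative list. In the second pooled list 6 of 25 had a summit (24%, 9.36 to 45.1), above the 5.96% of all genes. In replicate 2's own list their share was 16% (4.54 to 36.1), beside 4.07%. Replicate 1's own list gave 4% (0.101 to 20.4), beside 3.39%. Among the 5000 highest peaks replicate 1 gave 24% (9.36 to 45.1), beside 10.4%. Replicate 2 gave 44% (24.4 to 65.1) there, beside 11.2%. For the other 234 the top-5000 shares were 5.56% (2.99 to 9.31) and 7.69% (4.62 to 11.9). The listed genes also had a median of 2 starts, and 9.54% of all genes with 2 or more starts had a summit in the conservative list. The nhr-49 partner nhr-80, which controls fatty acid desaturation, had ranked signals of 24.5 in replicate 1 and 19.7 in replicate 2, and nhr-66 had 20.95 and 35.9, in both genes at different summits. The receptors nhr-10, which acts with nhr-68 in the propionate shunt, and nhr-13, another nhr-49 partner, had no promoter summit in either ranked list.

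Chromosomes were compared next, since 167 of the 274 receptor genes lie on V. On V, 5 receptor genes had a summit (2.99%, exact 95% interval 0.979 to 6.85), beside 4.23% of all V genes. Off V the count was 8 of 107 (7.48%, 3.28 to 14.2), beside 6.28% of all genes there. On X it was 4 of 27 (14.8%, 4.19 to 33.7), beside 6.52% of X genes. The counts were 2 of 33 on IV (background 5.43%), 1 of 15 on II (background 4.99%), 1 of 24 on I (background 7.19%) and 0 of 8 on III (background 7.80%), the last allowing a share of up to 36.9%. Each chromosome's interval includes its own background in the conservative list. On X, 6 of 27 had a summit in the second pooled list (22.2%, 8.62 to 42.3), beside 5.96% of all genes. The replicates' own lists gave 2 (7.41%, 0.910 to 24.3) and 5 (18.5%, 6.30 to 38.1), beside 3.39% and 4.07%. Among the 5000 highest peaks each replicate gave 8 (29.6%, 13.8 to 50.2), beside 10.4% and 11.2% of all genes. The shares of all X genes in these lists are not given here.

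Position along the chromosome was similar in its outcome. In the central 50% of chromosome V, 3 of 56 receptor genes had a summit (5.36%), beside 5.91% of all genes there, and on the arms of V 2 genes did (1.80%), beside 2.36%. Over all chromosomes the shares were 7 of 113 in the centres (6.19%, background 6.21%) and 6 of 161 on the arms (3.73%, background 5.22%). The low share of receptors on the arms of V was thus near that of their neighbours.

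**Figure D5:**
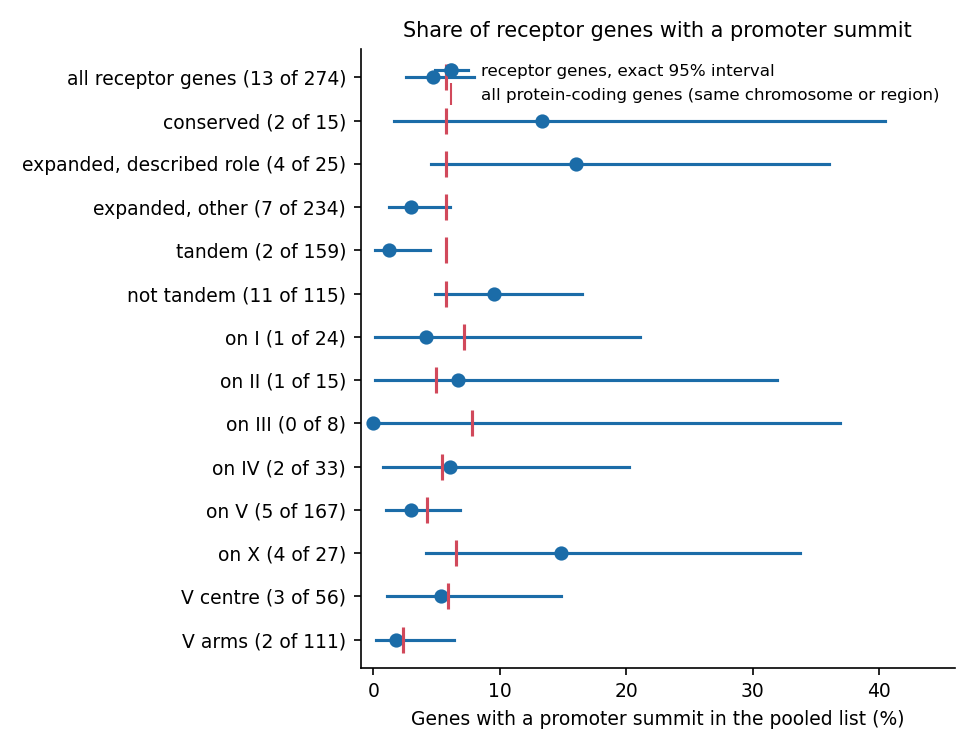
The plot of shares gives the percent of receptor genes with a promoter summit in the pooled conservative list, by class, tandem arrangement, chromosome and position on V, with exact 95% intervals (lines) and the share of all protein-coding genes on the same chromosome or region (red marks; all genes for the classes). The interval of the tandem genes, 2 of 159, lies below the mark for all genes at 5.77% but includes the 4.23% of genes on V, where 122 of them lie, and every chromosome's interval contains its mark.

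Receptor genes in tandem arrangement, defined as having another receptor gene within 10 kb, had a summit in 2 of 159 cases (1.26%, exact 95% interval 0.153 to 4.47). Of the 115 genes standing alone, 11 had one (9.57%, 4.87 to 16.5), beside 5.77% of all genes. These intervals do not overlap in the pooled conservative list, but they do in each replicate's own thresholded list. In the second pooled list they were also apart, at 0.153 to 4.47 for tandem and 6.82 to 19.6 for single genes. They lay on either side of the 5.96% of all genes there. Without replicate 2 the shares were 0.629% (0.0159 to 3.45) for tandem and 3.48% (0.956 to 8.67) for single genes, and without replicate 1 they were 1.26% (0.153 to 4.47) and 7.83% (3.64 to 14.3). The 2 tandem genes were nhr-49, which lies 4503 bp from nhr-69, and nhr-68, which lies 891 bp from nhr-101. Both are among the receptors with described roles.

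Most tandem genes, 122 of 159, lie on V. There 1 of 122 tandem genes had a summit (exact 95% interval 0.0208 to 4.48) and 4 of 45 single genes (2.48 to 21.2), beside 4.23% of all V genes. Off V the counts were 1 of 37 (0.0684 to 14.2) and 7 of 70 (4.12 to 19.5), beside 6.28%. Among genes with 1 start, 0 tandem genes had a summit (at most 3.27%) and 2 of 66 single genes (0.369 to 10.5), beside 4.42%. With 2 or more starts the counts were 2 of 48 (0.509 to 14.3) and 9 of 49 (8.76 to 32.0), beside 9.54%. The tandem count was thus the lower in each split, while the intervals overlapped in all of them. Tandem genes also had a shorter median length, 2140 bp against 3286 bp, and fewer of them had 2 or more starts, 48 of 159 against 49 of 115. The part of these features in the difference was not tested.

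Tandem receptor promoters did hold peaks in the ranked lists, mostly outside the 5000 highest. Among the 5000 highest peaks of replicate 1, summits fell in 2 tandem and 20 single genes, beside 10.4% of all genes. The shares were 1.26% (exact 95% interval 0.153 to 4.47) and 17.4% (10.96 to 25.6). In replicate 2 the counts were 7 and 26, with shares of 4.40% (1.79 to 8.86) and 22.6% (15.3 to 31.3), beside 11.2%. Among these highest peaks the tandem and single intervals did not overlap in either replicate and lay on either side of the share of all genes. Within V they stayed apart in replicate 1 (0.0208 to 4.48 and 5.05 to 26.8) but overlapped in replicate 2 (1.34 to 9.31 and 5.05 to 26.8). Off V they overlapped in replicate 1 alone. Among genes with 1 start they overlapped in replicate 2 alone, and with 2 or more starts in neither. The shares of all V genes among these peaks are not given here. In the whole ranked list of replicate 1, 64 of 159 tandem genes (40.3%) and 67 of 115 single genes (58.3%) had a ranked promoter summit, beside 45% of all genes. In replicate 2 the counts were 78 (49.1%) and 64 (55.7%), beside 46.2%. On V alone replicate 2 had the reverse order, 53.3% of tandem and 44.4% of single genes. Off V its shares were 35.1% and 62.9%. Across all 274 receptor genes, 131 (47.8%) had a ranked promoter summit in replicate 1 and 142 (51.8%) in replicate 2. Both replicates had one for 87 genes, replicate 1 alone for 44, replicate 2 alone for 55 and neither for 88. This split and the correlations below were not computed over all protein-coding genes. Whether they are usual for a gene set therefore cannot be told. Over the 87 genes, which share the same 2 libraries, the Pearson correlation of log2 signals was 0.682 and the Spearman correlation 0.518. Each value is the highest promoter summit in that replicate. The 2 summits of a gene can be different peaks, as at nhr-66 and nhr-88, so this is not agreement at the same sites.

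Just outside the pooled conservative list were nhr-85, nhr-40 and nhr-17, which the second pooled list adds. Their signals there were 83.3, 66.8 and 58.6. The nhr-85 signal exceeds those of nhr-19 and nhr-114, which are inside. The 3 genes instead have lower scores in the ranked list that the conservative one comes from, at 725 for nhr-85, 683 for nhr-40 and 698 for nhr-17, where the lowest score kept was 830. At these peaks replicate 1 had 29.7, 29.2 and 29.5 and replicate 2 had 50.6, 44.4 and 45.8, so each was lower in replicate 1. The nhr-40 promoter also held a higher replicate 1 summit elsewhere, of 38.6 at -963 bp.

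Summits inside receptor genes but outside their promoter windows were found in 6 of 274 receptor genes (2.19%, exact 95% interval 0.808 to 4.71), beside 1.88% of all genes, and every one lay in an intron. The highest was in nhr-19 at chrII:9603565-9603693, 1636 bp past a start, with a pooled signal of 218 and replicate signals of 111.5 and 106. This exceeds the nhr-19 promoter peak. The nhr-3 intron peak at chrX:14560337-14560660 had a pooled signal of 149.7, with 67.4 and 94.3 in the replicates. The nhr-17 intron peak at chrX:12665207-12665287 had a pooled signal of 149, with 48.1 and 99.1. Its summit lies inside the tRNA gene WBGene00009555 and the overlapping noncoding RNA gene C02B4.8. The nearest start of a protein-coding gene is that of nlp-76 at -1369 bp, while that of nhr-17 is at 2582 bp.

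Although daf-12 had no promoter summit in any thresholded list, its introns held 2 separate peaks of the pooled conservative list. One at chrX:10637428-10637751, 1682 bp past a start, had a pooled signal of 118 and replicate signals of 61.5 and 59.8, both above threshold. The other at chrX:10639438-10639761 had 78.6, with 42.8 and 39.4, below both thresholds. A further listed peak of signal 3.25 overlaps the latter. The remaining intron peaks were in nhr-88 (89.8 and 64.4) and nhr-1 (73.8).

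Genes that work with the receptors were counted from a list of coregulators, SUMO conjugation genes and dafachronic acid pathway genes. Of the 17 listed, 16 were found by symbol, and daf-21 was left out because the annotation holds no gene of that symbol. Promoter summits were present at 3 (18.8%, exact 95% interval 4.05 to 45.6, beside 5.77% of all genes). The coactivator acetyltransferase gene cbp-1 had a pooled signal of 506, with 255 in replicate 1 and 246 in replicate 2. The daf-12 corepressor gene din-1 had 194, with 100.3 at 35 bp in replicate 1 and 96.7 at -727 bp in replicate 2, a different summit. The SUMO gene smo-1, whose product modifies NHR-25, had 87.97, with 39.7 and 46.2, and passed neither replicate's threshold. The nhr-49 coactivator gene mdt-15 had a ranked summit in replicate 1 alone (19.6). The pathway genes daf-36, strm-1 and ncr-2 and the coregulator genes gei-8 and sin-3 had none in either.

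Of 15 genes known as targets of C. elegans receptors, 1 had a promoter summit (6.67%, exact 95% interval 0.169 to 31.9). It was acs-2, an acyl-CoA synthetase gene activated by nhr-49, with a pooled signal of 112 at -672 bp and replicate signals of 53.4 and 51.4, above threshold in replicate 2 alone. The desaturase genes fat-5 and fat-7, also under nhr-49, had no ranked summit in either replicate, while fat-6 had 38.4 at -450 bp in replicate 1 and 34.3 at -28 bp in replicate 2. The shares of both lists have intervals that include the background.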

How the data were processed

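Peaks of 2 biological replicates of 1 group were read from 7 deposited lists on ce11, per the labels. The lists are ranked by, or cut on, reproducibility of rank (IDR), per the deposited notes. The deposited signal is the authors' peak height, of unstated scaling, so levels were compared within a list and replicates only as values side by side. The deposited score runs up to 1000 in whole numbers. Read depth and the software behind the peaks are not known from the labels or notes. The main list pools both replicates. Of the pooled ranked lists, the one holding every main peak with its score was used; the other was not used here. Summits were assigned to promoters of protein-coding transcripts of Ensembl release 115; RefSeq supplied product names and, from its WBcel235 assembly, the sequence. Named are receptors in a thresholded list, all conserved and some described receptors, the next 5 by ranked position, and cofactor and target genes; the cofactor and target genes without a main summit, and those with introns bound, were named after their values were seen. Members, lists and alternatives were chosen with earlier results of these data known, and the splits by transcript starts and the tRNA search after seeing the values. Shares carry exact Clopper-Pearson 95% intervals. The promoter rule was tested on simulated data. The tools were matplotlib 3.10.9, scipy 1.17.1, pandas 2.3.3, numpy 2.4.6 and Python 3.11.15. The sequence of 1 receptor peak is not reported here.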

Additional observations from a re-analysis of the deposited data

How the results depend on the processing

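Depth is unknown, so absence from a list is not absence of binding. No paired analysis was possible because there is 1 group and no test. Counts are given in the order all, conserved, expanded, on V, off V, central, arm, tandem and single receptor genes, then cofactor and target genes. In the conservative list they were 13, 2, 11, 5, 8, 7, 6, 2, 11, 3 and 1. With 1 replicate's own list in place of the pooled one they ranged from 5 to 11, 1 to 3, 4 to 8, 3 to 3, 2 to 8, 3 to 6, 2 to 5, 1 to 2, 4 to 9, 2 to 2 and 0 to 1. Without replicate 2 the 5 were nhr-47, nhr-48, nhr-68, nhr-142 and nhr-255. Whole peak intervals gave the same counts, and the second pooled list gave 16, 3, 13, 5, 11, 8, 8, 2, 14, 3 and 1. The upper 50% by signal gave 8, 1, 7, 3, 5, 5, 3, 2, 6, 2 and 1. Peaks in both replicates' lists gave 5, 1, 4, 3, 2, 3, 2, 1, 4, 2 and 0. A promoter of 500 bp up and 100 bp down gave 7, 1, 6, 3, 4, 4, 3, 2, 5, 1 and 0. One of 2000 bp up gave 16, 2, 14, 6, 10, 9, 7, 2, 14, 3 and 1, and added nhr-14, nhr-21 and nhr-86. With the nearest start alone the counts were 11, 2, 9, 3, 8, 5, 6, 1, 10, 3 and 1, without nhr-68 and nhr-142. The ranked lists gave 131, 11, 120, 73, 58, 46, 85, 64, 67, 10 and 7 in replicate 1 and 142, 7, 135, 85, 57, 51, 91, 78, 64, 8 and 8 in replicate 2. The share of all genes moved with these counts. It was 5.77% in the conservative list, 5.96% in the second, 3.39% and 4.07% in the replicates' own lists, 3.64% for the upper 50%, 2.64% for peaks in both lists, 4.32% and 7.495% for the narrow and wide promoters, 6.12% for whole intervals and 4.36% for the nearest start.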

Other observations

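The receptors ranked highest by position in both ranked lists, but present in no thresholded list, were nhr-64, nhr-3, nhr-57, nhr-88 and nhr-46. The HNF4 relative nhr-64 had 30.8 in replicate 1 and 39.3 in replicate 2, at -62 and -63 bp. The hypoxia-induced receptor nhr-57 differed most between replicates, with 50.7 in replicate 1 (rank 1109) and 25.2 in replicate 2 (rank 8996). For nhr-3 the signals were 31.2 at -810 bp and 32.7 at -908 bp. The nhr-88 and nhr-46 values were 28.8 and 33.6 and 29.4 and 31.0, at summits that differ between the replicates. Both nhr-3 and nhr-88 also have pooled summits within their introns.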
